A study of Mus musculus with 56 samples.

Results

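The genes described are 8 members of the TNF receptor superfamily, *Tnfrsf4*, *Tnfrsf18*, *Tnfrsf9*, *Tnfrsf25*, *Cd27*, *Tnfrsf1b*, *Fas* and *Tnfrsf13c*. They were taken by Ensembl identifier from a table of 55359 genes, and all 8 were among the 19657 genes that passed the filter on low counts. The RNA came from CD8 T cells specific for OVA:Kb in the spleen and lymph nodes of individual female C57BL/6 mice, which were 8 to 12 weeks old at purchase, the age at sampling not being stated. These cells recognize an antigen carried by the fetus and by a skin graft alike, and are called fetus and graft-specific T cells (TFGS). Naive TFGS came from untreated mice (n = 3), and Sensitized TFGS from mice that had received an allogeneic skin graft of 2W-OVA.BALB/c origin at least 30 days before (n = 4). N+P TFGS came from previously untreated mice, and S+P TFGS from grafted mice, in both cases in the first 3 days after a semi-allogeneic pregnancy sired by 2W-OVA.BALB/c males. N+P TFGS were sorted into C1 (PD1-, n = 3) and C5 (PD1+CD73+, n = 3), and S+P TFGS into C4 (PD1-, n = 6), C5 (PD1+CD73+, n = 6) and C7 (PD1+CD73-, n = 5). Naive and Sensitized TFGS were not split by PD1 or CD73, so a comparison of a PD1+CD73+ subset with them joins the effect of pregnancy to the effect of the gate.

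Each library held 200 sorted cells and was amplified by PCR without molecular identifiers. The 56 libraries had 6636532 to 32625243 counts, with a median of 17299849. Libraries of the same mouse and subset were summed, which left 30 samples with 15547934 to 54809406 counts. A library that is identical in every gene in Naive replicate 1 and S+P C4 replicate 1 was left out of both. Replicates 1 and 2 of S+P C7 held a nearly identical library (Pearson's r 0.999 over log2 CPM, against at most 0.953 between libraries of any mouse and subset), so they were averaged and used as 1 sample, and mice 1 and 2 were left out of every within-mouse comparison with C7. In 3 samples, fewer than 9000 genes had a count: S+P C4 replicate 2 (8002 genes), S+P C4 replicate 3 (7436) and S+P C7 replicate 3 (7879). S+P C7 replicate 3 also held 10050 CPM (counts scaled to a common library size) of the hemoglobin gene *Hba-a1* and 8237 CPM of the immunoglobulin gene *Ighm*. CPM of samples were scaled by TMM factors, and CPM of technical libraries compared with each other by the library total alone. Counts of mice for the receptors named in within-mouse comparisons are also given without these samples. So are the edgeR log2 fold changes of *Tnfrsf4* and *Cd27* in S+P C5 against S+P C4. The same holds for *Tnfrsf25* in S+P C7 against S+P C5 and against Sensitized. The cells were sorted in separate experiments, and the labels do not tell which mouse belongs to which. The labels number 6 replicates of each S+P subset, which is more than the study's text states per group. No near-identical library was found between replicates of S+P C4 or of S+P C5, so they were counted as separate mice, which the labels do not state.

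The TNF receptor superfamily holds membrane receptors that are engaged by trimeric ligands of the TNF family. *Tnfrsf4* (OX40), *Tnfrsf9* (4-1BB), *Tnfrsf18* (GITR), *Tnfrsf25* (DR3) and *Cd27* are known as costimulatory receptors of T cells, *Tnfrsf1b* encodes TNF receptor 2, *Fas* a death receptor, and *Tnfrsf13c* the receptor for the B cell survival factor BAFF. Most of them recruit TRAF adaptors and turn on NF-kB, while Fas and DR3 carry a death domain. OX40, 4-1BB and GITR are known to be induced when a T cell recognizes antigen, while naive T cells already carry CD27.

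On GRCm39, 5 of the 8 genes lie on chromosome 4. *Tnfrsf4* (ENSMUSG00000029075, chr4:156098293-156101069, plus strand) and *Tnfrsf18* (ENSMUSG00000041954, chr4:156110621-156113352, plus strand) are neighbours, with 9551 bases between the end of the first and the start of the second. The long noncoding RNA *Gm16008* overlaps both on the other strand. *Tnfrsf25* overlaps *Espn*, *Cd27* overlaps *Vamp1* and *Mir8113*, and *Fas* overlaps *Gm54659*. Since the strand setting of the counting is not given in the sources used here, reads of these genes and of their overlapping partners cannot be told apart. The 200 bases before the transcription start of *Tnfrsf4*, *Tnfrsf18* and *Cd27* are shown because these 3 genes had the higher level in the PD1+CD73+ cells in every mouse compared, a difference that did not pass the adjusted test. They are read 5′ to 3′ on the strand of the gene, and capitals mark the letters GGAAA or, on the other strand, TTTCC, the core bound by NFAT factors.
Tnfrsf4, chr4:156098093-156098292, plus strand: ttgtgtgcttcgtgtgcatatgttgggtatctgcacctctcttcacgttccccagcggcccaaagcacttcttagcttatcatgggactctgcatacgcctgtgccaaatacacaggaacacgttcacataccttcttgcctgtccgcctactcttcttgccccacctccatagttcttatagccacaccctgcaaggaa
Tnfrsf18, chr4:156110421-156110620, plus strand: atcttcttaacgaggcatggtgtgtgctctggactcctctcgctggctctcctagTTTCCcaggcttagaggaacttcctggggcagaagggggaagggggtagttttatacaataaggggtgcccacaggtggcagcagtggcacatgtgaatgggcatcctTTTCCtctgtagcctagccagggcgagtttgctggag
Cd27, chr6:125213989-125214188, minus strand: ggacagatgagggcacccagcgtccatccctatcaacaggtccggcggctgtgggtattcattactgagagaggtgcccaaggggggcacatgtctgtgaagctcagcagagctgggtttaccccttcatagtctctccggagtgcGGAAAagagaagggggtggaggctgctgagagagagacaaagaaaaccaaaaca
The NFAT core occurred 2 times before *Tnfrsf18*, 1 time before *Cd27* and 0 times before *Tnfrsf4*, and 49.4% of the 21770 protein-coding genes held it in a window of the same length. The AP-1 letters TGANTCA (4.93% of genes) and the NF-kB consensus (6.48% of genes), searched on both strands, were found before none of these 3. Among the 8 genes, *Tnfrsf9* alone held either. Its window had the NF-kB consensus in 2 overlapping matches between 43 and 33 bases before the start, over 1 of its 3 NFAT cores, and TGANTCA between 15 and 9 bases before it. A match of letters is a description and not a site of binding.

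The markers of the labelled cell type were present in every sample. The 6 CD8 T cell markers *Cd8a*, *Cd8b1*, *Cd3d*, *Cd3e*, *Cd3g* and *Trac* summed to 4491 to 8790 CPM per sample. *Cd4* was at 0 in every PD1+CD73+ sample, and *Foxp3*, which defines regulatory T cells, was at most 4.33 CPM in N+P C5, where it had a count in 1 of 3 samples, and 1.35 CPM in S+P C5. *Ikzf2*, which regulatory T cells also express and which led the list of 4 markers of CD4 and regulatory T cells in these subsets, was at 37.0 to 81.3 CPM in N+P C5 and 17.3 to 121 CPM in S+P C5, against 6.05 to 18.4 CPM in Naive and 3.25 to 17.8 CPM in Sensitized TFGS. The summed level of that list was 53.1 to 129 CPM in N+P C5 and 34.0 to 127 CPM in S+P C5, against 14.7 to 20.8 CPM in Naive and 4.98 to 17.8 CPM in Sensitized TFGS. In the PD1- cells it was 5.91 to 19.2 CPM in N+P C1 and 0 to 32.8 CPM in S+P C4, below every PD1+CD73+ sample of the same kind of mouse. In S+P C5 against S+P C4, edgeR called 0 of these 4 markers (0.0305% of all genes) and DESeq2 called 3 of them higher (4.87% of all genes). DESeq2 called 1 higher in N+P C5 against Naive (5.07% of all genes) and 1 in S+P C5 against Sensitized (4.98%). In N+P C5 against N+P C1 it called 0 (4.21%). The part of these markers in the results below was not tested.

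Over the 30 samples, *Cd27* had the highest level per kilobase of exon (127 CPM per kb), followed by *Tnfrsf18* (44.9), *Fas* (19.0), *Tnfrsf4* (18.2), *Tnfrsf1b* (12.3), *Tnfrsf9* (7.09), *Tnfrsf25* (4.93) and *Tnfrsf13c* (2.21). *Cd27*, *Tnfrsf1b* and *Fas* had counts in all 30 samples. *Tnfrsf13c* had counts in 16 of 30. In the bulk samples used here, fewer cells that express a gene and less of its RNA per cell cannot be told apart. The level of each receptor in every sample is plotted by group.

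**Figure D1:**
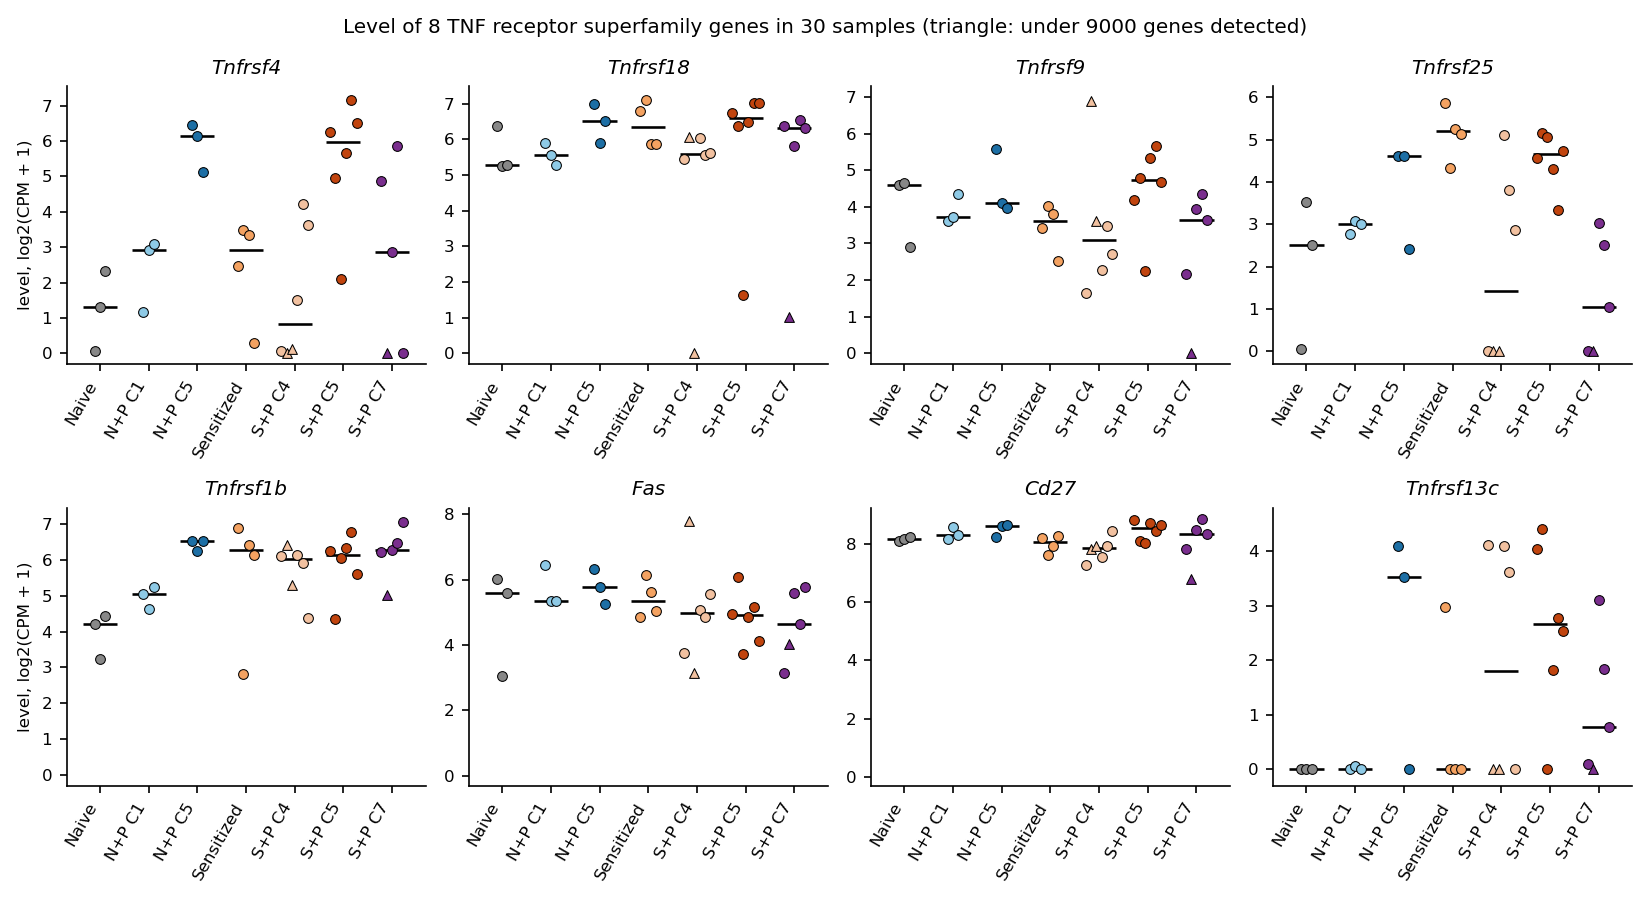
Level of the 8 receptor genes in each of the 30 samples, as log2(CPM + 1), by sorted group. Points are samples, triangles are the 3 samples with under 9000 genes detected, and lines are the medians of the plotted values. *Tnfrsf4* sits high in N+P C5 and in 5 of 6 S+P C5 samples, *Tnfrsf1b* has its lowest median in Naive TFGS, and *Tnfrsf25* is low in S+P C7.

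Among the receptors with counts in every group, OX40 had the largest fold change in both pregnancy comparisons. *Tnfrsf4* was at 86.7, 70.2 and 33.8 CPM in the 3 N+P C5 samples, against 0.0412, 1.49 and 4.04 CPM in Naive TFGS. In S+P C5 it ranged from 3.31 to 141 CPM with a median of 62.5, against 4.58, 10.2, 9.23 and 0.234 CPM in Sensitized TFGS. The groups did not overlap after pregnancy in naive mice. In sensitized mice S+P C5 replicate 3, at 3.31 CPM, lay among the Sensitized samples and the other 5 lay above them. The log2 fold change was 5.09 (SE 2.30) for N+P C5 against Naive and 3.42 (SE 1.78) for S+P C5 against Sensitized. Neither passed the test in edgeR (adjusted p = 0.761 and 0.433). For *Tnfrsf4* alone, the exact two-sided permutation test of log2(CPM + 1) gave p = 0.1 for the first, the smallest that 3 against 3 samples allow, and p = 0.0333 for the second, not adjusted for the number of tests.

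TNF receptor 2 was lowest in Naive TFGS by median. *Tnfrsf1b* was at 17.7, 8.45 and 20.9 CPM in Naive TFGS and at 92.4, 75.9 and 91.1 CPM in N+P C5. Sensitized TFGS held 119, 6.00, 84.6 and 70.1 CPM, so 3 of the 4 were above every Naive sample and 1 was below all of them. S+P C5 ranged from 19.4 to 110 CPM with a median of 70.6, which overlapped Sensitized TFGS. The log2 fold change was 2.46 (SE 0.81) for N+P C5 against Naive (edgeR adjusted p = 0.761), 2.15 (SE 0.77) for Sensitized against Naive (adjusted p = 0.624) and -0.07 (SE 0.61) for S+P C5 against Sensitized (adjusted p = 1). The difference between both pregnancy changes of *Tnfrsf1b* was -2.53 (SE 0.99) on the log2 scale, with an edgeR adjusted p of 0.641.

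The remaining receptors overlapped between the groups in both pregnancy comparisons. *Tnfrsf18* was at 126, 58.4 and 90.4 CPM in N+P C5 and 81.7, 37.5 and 37.8 CPM in Naive TFGS. In S+P C5 it was at 2.13 to 130 CPM (median 97.3), and in Sensitized TFGS at 111, 136, 57.4 and 57.8 CPM. *Tnfrsf9* was at 46.9, 16.3 and 14.6 CPM in N+P C5 against 23.2, 24.0 and 6.43 CPM in Naive TFGS. It ranged from 3.76 to 49.7 CPM in S+P C5 (median 25.5) against 4.73 to 15.2 CPM in Sensitized TFGS, where 5 of 6 samples were above every Sensitized sample. *Cd27* was at 302, 389 and 397 CPM in N+P C5 against 273, 286 and 302 CPM in Naive TFGS, and at 258 to 447 CPM in S+P C5 against 197 to 307 CPM in Sensitized TFGS. For *Fas*, N+P C5 held 37.4 to 79.5 CPM and Naive TFGS 7.23 to 63.8 CPM, while S+P C5 held 12.3 to 67.6 CPM and Sensitized TFGS 27.8 to 69.1 CPM. *Tnfrsf25* had a log2 fold change of 1.75 (SE 1.98) in N+P and -0.62 (SE 1.5) in S+P mice, and *Fas* of 0.54 (SE 0.99) and -0.49 (SE 0.78), with an edgeR adjusted p of 1 for each.

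Over all genes, edgeR called 0.0458% of those tested in N+P C5 against Naive, and 0.0712% of those in S+P C5 against Sensitized, with the thresholds of 0.1 on the adjusted p and 0.9 on the size of the log2 fold change. It called 0 of the 8 receptors in both, while 3 had an unadjusted p under 0.05 in the first (5.41% of all genes) and 0 in the second (13% of all genes). DESeq2 called 3 in the first (*Tnfrsf4*, *Tnfrsf1b* and *Tnfrsf13c*, with 5.07% of all genes) and 0 in the second (4.98% of all genes). The samples of the groups did not overlap for 2 of the 8, *Tnfrsf4* and *Tnfrsf1b*, in N+P C5 against Naive, and for 12.9% of all genes tested. The median log2 fold change of the 8 was 1.28 in N+P C5 against Naive, where the median over all genes was 0 and 8 of 8 were above 0. In S+P C5 against Sensitized it was 0.23, with 4 of 8 above 0 and a median over all genes of -0.01.

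The mean of both pregnancy changes used all 4 groups at once. It called 0.397% of genes, the most of any comparison made, and 0 of the 8 receptors by edgeR. *Tnfrsf4* had a mean change of 4.26 (SE 1.46) on the log2 scale with an adjusted p of 0.263, the lowest of any receptor in any comparison. It moved past the threshold when the 3 samples with few genes were left out (adjusted p = 0.0534), when only these 4 groups were fitted (adjusted p = 0.0161) and in DESeq2 (adjusted p = 0.00476). Of the 8 receptors 3 had an unadjusted p under 0.05 in edgeR (10.8% of all genes), and DESeq2 called these 3 (6.81% of all genes). For the difference between both pregnancy changes, edgeR called 0.0254% of genes and 0 receptors. There, 2 receptors had an unadjusted p under 0.05 (6.44% of all genes), and DESeq2 called the same 2, *Tnfrsf1b* and *Tnfrsf13c* (4.13% of all genes).

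**Figure D2:**
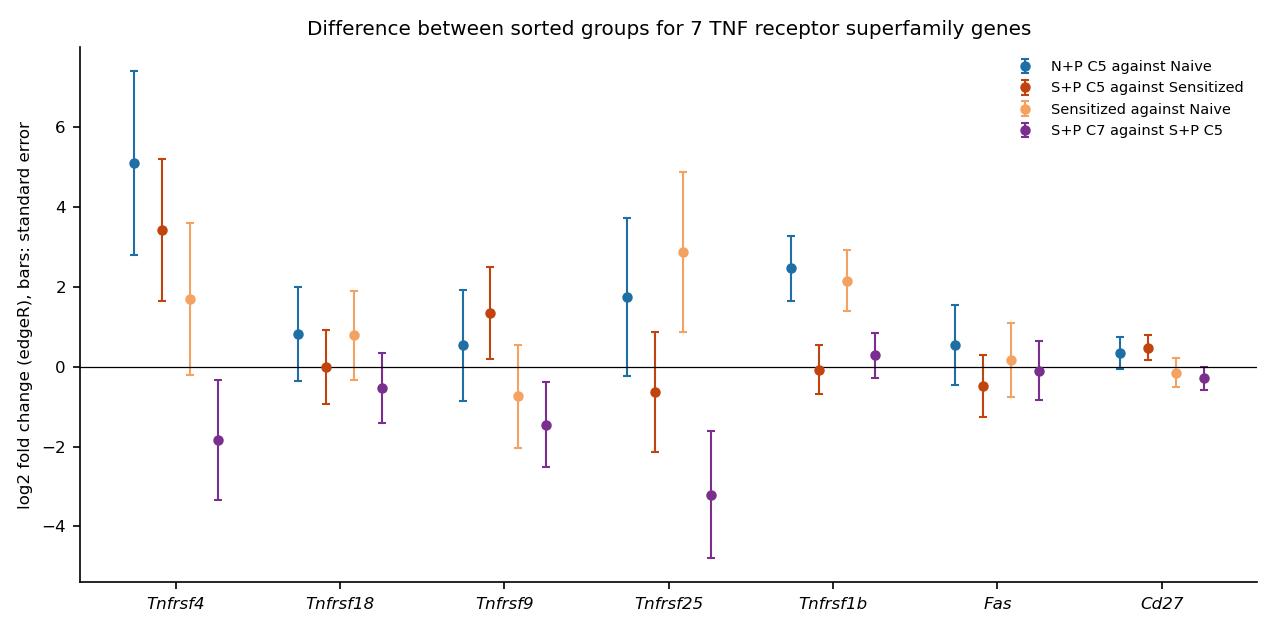
Log2 fold change of 7 receptor genes in 4 comparisons between sorted groups, with standard errors from edgeR. *Tnfrsf4* has the highest values for both pregnancy comparisons (5.09 and 3.42), *Tnfrsf1b* is near 2 against Naive TFGS and near 0 in S+P C5 against Sensitized, and *Tnfrsf25* is at -3.20 in S+P C7 against S+P C5. *Tnfrsf13c* is not drawn because Naive TFGS held no count of it.

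Subsets with the same replicate number share the stem of their column name and were read as sorted from 1 mouse, which no label states outright. For the 3 N+P pairs, the correlation of same-numbered samples did not bear this out. *Tnfrsf4* was higher in the PD1+CD73+ cells than in the PD1- cells in 9 of 9 post-partum mice, 3 N+P and 6 S+P. The difference in log2(CPM + 1) averaged 3.74 ± 1.49 (SD, n = 9 mice) and ran from 1.97 to 6.19. *Tnfrsf18* was higher in 9 of 9 mice too, by 1.02 ± 0.52 (SD, n = 9), and *Cd27* in 9 of 9, by 0.48 ± 0.52 (SD, n = 9). *Cd27* thus differed least, from a level of at least 110 CPM in every sample. Over all genes tested, 1.66% were in 1 direction in every one of the 9 pairs. The exact two-sided sign-flip test gave p = 0.00391 for each of the 3 receptors, the smallest that 9 pairs allow. Adjusted over the 19657 genes tested, this became 0.235, above the threshold. Without the pairs that hold a sample of few genes, each of the 3 was higher in 7 of 7 mice, and so was *Tnfrsf1b* (0.97 ± 0.61, SD, n = 7). The share of all genes in 1 direction was counted for the 9 pairs only, so the counts in 7 mice have no share to be set beside. *Tnfrsf9* was higher in 6 of 9 mice by 0.92 on average, and without those pairs in 6 of 7 by 1.68. *Tnfrsf25* was higher in 6 of 9 mice by 2.02 on average, and without those pairs in 4 of 7 by 1.13. With all pairs *Tnfrsf1b* was higher in 8 of 9 mice, the exception being S+P mouse 2, whose PD1- sample had few genes.

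**Figure D3:**
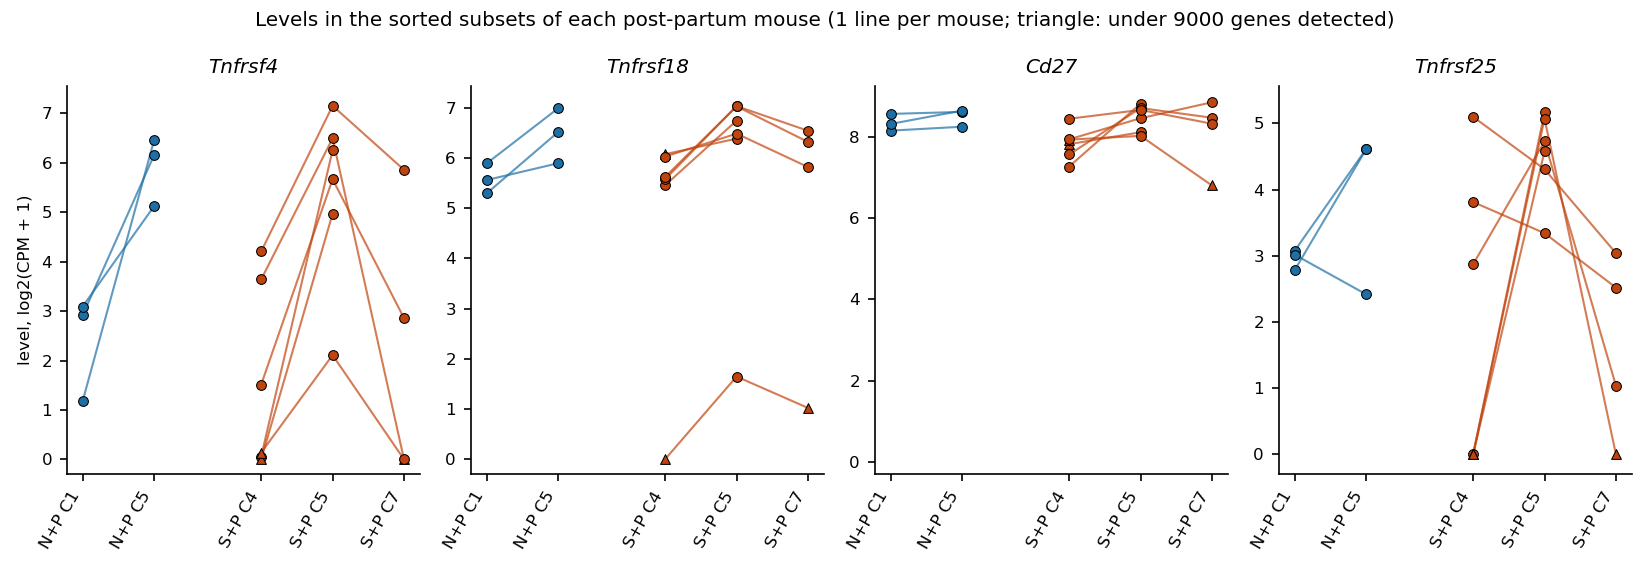
Levels of 4 receptor genes, as log2(CPM + 1), in the sorted subsets of each post-partum mouse. Each line joins the subsets of 1 mouse (blue N+P, red S+P), and triangles are samples with under 9000 genes detected. *Tnfrsf4*, *Tnfrsf18* and *Cd27* go up from the PD1- to the PD1+CD73+ subset in all 9 mice, and *Tnfrsf4*, *Tnfrsf18* and *Tnfrsf25* go down from S+P C5 to S+P C7 in the 4 mice whose C7 samples were not averaged.

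In N+P mice alone, *Tnfrsf4* was at 1.27, 6.55 and 7.53 CPM in C1 and at 86.7, 70.2 and 33.8 CPM in C5. *Tnfrsf18* was at 58.3, 46.1 and 38.2 CPM in C1 and *Tnfrsf1b* at 32.1, 23.9 and 36.9 CPM. For these 3 genes the samples of N+P C5 all lay above those of N+P C1, as 10.8% of all genes tested did in either direction. All 3 pairs went 1 way for *Tnfrsf4*, *Tnfrsf18*, *Tnfrsf1b* and *Cd27*, as for 23.6% of all genes. edgeR called 0.00509% of genes in N+P C5 against N+P C1 and 0 of the 8 receptors, with 1 unadjusted p under 0.05 (4.36% of all genes) and 1 call by DESeq2 (4.21% of all genes), both for *Tnfrsf13c*.

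In S+P mice, *Tnfrsf4* ranged from 0 to 17.5 CPM in C4 (median 0.978) and from 3.31 to 141 CPM in C5 (median 62.5). *Tnfrsf18* ranged from 0 to 66.4 CPM in C4 (median 47.5) and from 2.13 to 130 CPM in C5 (median 97.3). Mouse 3 had the lowest *Tnfrsf18* of every S+P subset, at 0 CPM in C4, 2.13 CPM in C5 and 1.03 CPM in C7. Each of those samples was a single library. *Tnfrsf4*, *Tnfrsf18* and *Cd27* were higher in C5 than in C4 in 6 of 6 mice, with an exact sign-flip p of 0.0312 each and an adjusted p of 0.697 over all genes. Without mice 2 and 3, whose C4 samples held few genes, they were higher in 4 of 4. *Tnfrsf9* was then higher in 4 of 4 by 2.45, against 4 of 6 by 1.05 with all mice. *Tnfrsf1b* was higher in 4 of 4 by 0.60, against 5 of 6 by 0.18. The smallest exact sign-flip p that 4 pairs allow is 0.125, and no share of all genes was counted for them. Of all genes, 4.48% went 1 way in the 6 pairs. edgeR called 0.0305% of genes in S+P C5 against S+P C4 and 0 of the 8 receptors. There, 2 receptors had an unadjusted p under 0.05 (13.4% of all genes), *Tnfrsf4* (log2 fold change 3.65, SE 1.52, adjusted p = 0.299) and *Cd27* (0.62, SE 0.28, adjusted p = 0.321), and DESeq2 called *Tnfrsf4* (4.87% of all genes). Without the samples of few genes the log2 fold change was 3.04 for *Tnfrsf4* and 0.61 for *Cd27*, neither of them called. The median log2 fold change over all genes was 0.11 in this comparison. For the mean of both gate differences, edgeR called 0.0254% of genes and 0 receptors, with 2 unadjusted p under 0.05 (8.54% of all genes) and 1 call by DESeq2 (*Tnfrsf4*, with 5.18% of all genes).

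In S+P mice the PD1+CD73- cells, C7, were set beside the PD1+CD73+ cells, C5, and no receptor passed the test. *Tnfrsf25* was at 0, 0, 7.23, 4.73 and 1.05 CPM in C7 and at 9.13 to 34.9 CPM in C5 (median 24.2). No C7 sample reached the lowest C5 sample, and 0.407% of all genes had groups that did not overlap, in either direction. *Tnfrsf4* was at 28.3, 0, 6.25, 57.0 and 0 CPM in C7 and *Tnfrsf9* at 3.44, 0, 14.5, 19.5 and 11.6 CPM, both overlapping C5. In the 4 mice left for pairs, *Tnfrsf4*, *Tnfrsf9*, *Tnfrsf18* and *Tnfrsf25* were lower in C7 in 4 of 4, as 10.8% of genes were in 1 direction or the other. Without mouse 3, whose C7 sample held few genes, they were lower in 3 of 3, for which no share of all genes was counted. The difference of *Tnfrsf18* was even between mice, at -0.62 ± 0.094 (SD, n = 4) in log2(CPM + 1), and that of *Tnfrsf9* was -1.49 ± 0.53 (SD, n = 4). Mouse 3 held *Tnfrsf18* at 2.13 CPM in C5 and 1.03 CPM in C7, where the added 1 makes the difference smaller. Without that mouse the difference of *Tnfrsf18* was -0.62 ± 0.11 (SD, n = 3). With all 4 mice the exact sign-flip p was 0.125, the smallest that 4 pairs allow. edgeR called 0% of genes in S+P C7 against S+P C5, and 0 receptors had an unadjusted p under 0.05 (12.7% of all genes) or a call by DESeq2 (2.80% of all genes). For *Tnfrsf25* the log2 fold change was -3.20 (SE 1.59, edgeR adjusted p = 0.408), and -2.90 without the samples of few genes (not called).

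*Tnfrsf25*, for the receptor DR3, was highest by median in Sensitized TFGS. It was at 57.3, 19.1, 37.1 and 34.2 CPM in Sensitized TFGS, above the 0.0412, 10.4 and 4.72 CPM of Naive TFGS. S+P C4 held 0, 0 and 0 CPM in mice 1 to 3 and 33.3, 13.0 and 6.32 CPM in mice 4 to 6. Of the mice at 0, 2 had few genes detected in that sample, and mouse 1 did not (12383 genes, 1 library). The log2 fold change was 2.86 (SE 2.00) for Sensitized against Naive (edgeR adjusted p = 0.854). An exact permutation test gave p = 0.0286 for this pair of groups, the smallest that 4 against 3 samples allow, not adjusted. For S+P C7 against Sensitized it was -3.82 (SE 1.70, edgeR adjusted p = 0.473), and every C7 sample lay below every Sensitized sample. Without the samples of few genes it was -3.49 (not called). The samples of the groups did not overlap for 7.60% of all genes in Sensitized against Naive and for 2.16% in S+P C7 against Sensitized. edgeR called 0.153% of genes in the first and 0.0305% in the second, with 0 receptors in each. In the first, 2 receptors had an unadjusted p under 0.05 (7.84% of all genes) and DESeq2 called 2 (*Tnfrsf1b* and *Tnfrsf13c*, with 5.45% of all genes). In the second, 1 had an unadjusted p under 0.05 (*Tnfrsf25*, with 10.2% of all genes) and DESeq2 called 0 (3.77% of all genes).

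The remaining comparisons set PD1- cells against their unmated counterparts and N+P against S+P cells. In N+P C1 against Naive edgeR called 0% of genes, in S+P C4 against Sensitized 0.00509%, in S+P C4 against N+P C1 0.0610%, in S+P C7 against S+P C4 0.00509% and in S+P C5 against N+P C5 0%. It called 0 of the 8 receptors in each of these 5. An unadjusted p under 0.05 was found for 1 receptor in S+P C4 against N+P C1, *Tnfrsf13c*, and for 0 in the other 4. The share of all genes with such a p was 9.26% there, 3.29% in N+P C1 against Naive, 12.7% in S+P C4 against Sensitized, 15.9% in S+P C7 against S+P C4 and 5.91% in S+P C5 against N+P C5. DESeq2 called *Tnfrsf13c* in S+P C4 against N+P C1 (5.23% of all genes) and in N+P C1 against Naive (3.76% of all genes). It called 0 receptors in S+P C4 against Sensitized, S+P C7 against S+P C4 and S+P C5 against N+P C5, with 4.63%, 4.58% and 3.81% of all genes. *Tnfrsf1b* was at 32.1, 23.9 and 36.9 CPM in N+P C1, above all 3 Naive samples, as 7.30% of genes were above or below. In S+P C7 and C4 of the same mouse, no receptor went 1 way in all 4 pairs, as 7.85% of genes did. Without mouse 3, whose C7 and C4 samples both held few genes, 3 receptors went 1 way in 3 of 3. *Tnfrsf9* and *Tnfrsf1b* were higher in C7, by 1.17 and 1.12 on average in log2(CPM + 1), and *Tnfrsf25* was lower (-1.73). The smallest exact sign-flip p that 3 pairs allow is 0.25, and no share of all genes was counted for them. PD1+CD73+ cells of N+P and S+P mice overlapped for all 8 receptors, with log2 fold changes between -0.85 (SE 0.84, *Fas*) and 0.49 (SE 1.70, *Tnfrsf25*). Over the 15 comparisons, 17 of 120 receptor results had an unadjusted p under 0.05 and 15 were called by DESeq2, where 9.31% and 4.62% of all gene results were.

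*Tnfrsf13c*, the BAFF receptor gene, accounted for 7 of the 15 calls by DESeq2. It was at 0 counts in the 3 Naive samples, which allows a level of up to 0.0371 CPM over the group (3 counts), and at 0, 0.0348 and 0 CPM in N+P C1. N+P C5 held 15.9, 10.5 and 0 CPM. Only 1 of 4 Sensitized samples had counts (6.81 CPM). S+P C5 ranged from 0 to 20.1 CPM with 5 of 6 samples above 0, and S+P C4 held 16.3, 0, 0, 16.0, 11.2 and 0 CPM. Every comparison thus had overlapping samples. In the 22 pairs of libraries from 1 mouse and subset, both libraries had counts in 5, 1 alone in 8 and neither in 9. Of the 8 B cell markers, *Ighm* was the most abundant in all 30 samples and made up most of the summed level, which was 372 to 1335 CPM in N+P C5, 154 to 282 CPM in S+P C5 and 671 to 1369 CPM in Naive TFGS. *Cd79b* was the next, at 61.2, 38.6 and 33.3 CPM in N+P C5 against 34.1, 10.9 and 23.8 CPM in Naive TFGS, which overlap. *Cd79a* was at 1.60, 0 and 0 CPM in N+P C5, and *Ms4a1* and *Pax5* reached at most 3.04 and 0.749 CPM in any sample. Of the 5 markers that passed the filter, 4 had a log2 fold change above 0 in N+P C5 against Naive (median 2.05) and 1 in S+P C5 against Sensitized (median -0.47, or -2.17 with genes at 0 in a group set to their bound). None of the 5 was called by edgeR or DESeq2 or had an unadjusted p under 0.05 in either. Their part in the level of *Tnfrsf13c* was not tested.

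Most samples had technical replicate libraries, which show the spread within a mouse and subset. The median difference between both libraries of a pair in log2(CPM + 1) was 0.18 for *Cd27*, 0.50 for *Tnfrsf1b*, 0.55 for *Tnfrsf18*, 0.63 for *Fas*, 0.86 for *Tnfrsf9*, 1.27 for *Tnfrsf4* and 1.48 for *Tnfrsf25*. The median difference between mice of a group was 0.38 for *Cd27*, 1.74 for *Tnfrsf4* and 1.04 for *Tnfrsf25*. For *Tnfrsf25*, the value between libraries was thus larger than that between mice. Libraries were scaled by their total alone. The samples of mice were scaled by TMM factors and were mostly sums of libraries, so the 2 kinds of value are not on 1 scale. *Tnfrsf4* had counts in both libraries in 17 of 22 pairs, and *Tnfrsf25* in 16 of 22. *Cd27*, *Tnfrsf1b*, *Tnfrsf18* and *Fas* had counts in both in 22 of 22.

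Among the 9 ligand genes of these receptors, OX40 ligand was called in the mean of both pregnancy changes. That mean joins the effect of pregnancy to that of the PD1+CD73+ gate. *Tnfsf4* was at 0 CPM in all 3 Naive samples and at 20.0, 31.5 and 20.0 CPM in N+P C5. Sensitized TFGS held 0, 0, 0.0304 and 0.0260 CPM, and S+P C5 31.4 to 193 CPM. *Tnfsf4* rose in the mean of both pregnancy changes (edgeR adjusted p = 0.0126) and was the only 1 of the 8 ligands tested that passed there, as 0.397% of all genes did. edgeR called it in neither N+P C5 against Naive nor S+P C5 against Sensitized. PD1- cells held 6.75, 0 and 0 CPM in N+P C1 and 0 to 15.1 CPM in S+P C4, and C7 held 2.00, 0, 35.7, 116 and 35.6 CPM. Across the 30 samples, *Tnfrsf4* and *Tnfsf4* had a Pearson's r of 0.67 on log2(CPM + 1), given as a description, since the samples share groups, mice and depth.

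**Figure D4:**
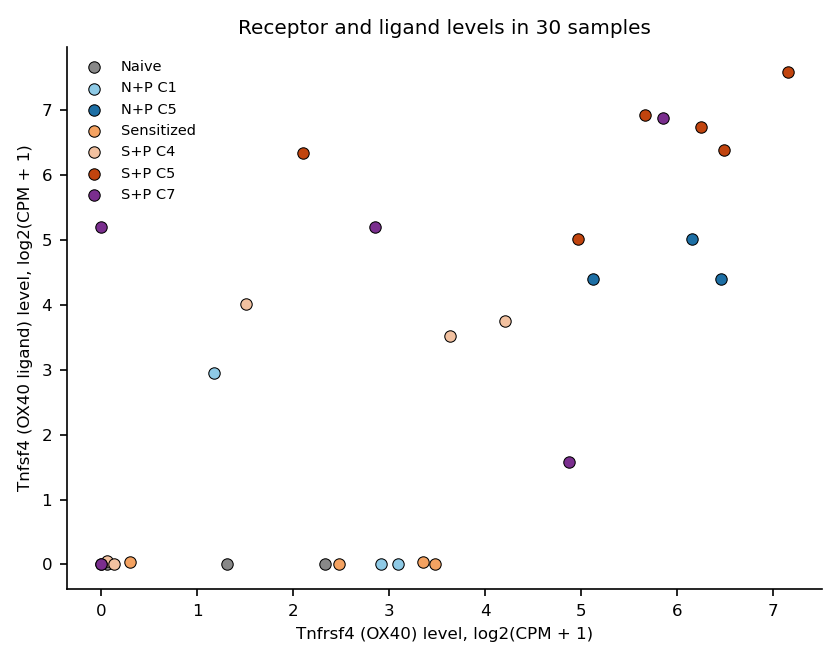
Level of *Tnfsf4* (OX40 ligand) against that of *Tnfrsf4* (OX40) in 30 samples, both as log2(CPM + 1), coloured by sorted group. All 3 N+P C5 and all 6 S+P C5 samples have counts of both genes, Naive and Sensitized samples lie on or next to the bottom axis, and 1 S+P C7 sample without *Tnfrsf4* has 35.6 CPM of *Tnfsf4*.

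Fas ligand was called in Sensitized against Naive, as the only 1 of the 8 ligands tested (0.153% of all genes called). *Fasl* rose there (edgeR adjusted p = 0.0568), at 219, 323, 293 and 106 CPM in Sensitized against 4.82, 0.0332 and 5.29 CPM in Naive TFGS, with a log2 fold change of 6.12 (SE 1.33). Its receptor *Fas* was at 27.8, 69.1, 48.2 and 32.1 CPM in Sensitized and 63.8, 7.23 and 46.9 CPM in Naive TFGS, which overlap (log2 fold change 0.17, SE 0.93, adjusted p = 1). In S+P C7, *Fasl* was at 142 to 532 CPM and *Fas* at 7.94 to 53.4 CPM. The TNF gene *Tnf* was at 6.71 to 48.6 CPM in N+P C5 and 2.22 to 5.30 CPM in Naive TFGS. *Lta*, for lymphotoxin alpha, which also binds TNF receptor 2, was at 15.6 to 33.0 CPM in N+P C5 and 2.00 to 26.4 CPM in Naive TFGS. The ligands of CD27 and DR3, *Cd70* and *Tnfsf15*, were at most 2.70 and 1.13 CPM in any sample, and that of GITR, *Tnfsf18*, at most 4.01 CPM. In both pregnancy comparisons, N+P mice first, edgeR called 0 and 0 of the 8 ligands tested and DESeq2 called 3 and 1, all higher (5.07% and 4.98% of all genes). At an unadjusted p under 0.05 there were 3 higher in the first (5.41% of all genes), and 1 higher and 1 lower in the second (13% of all genes). The median log2 fold change of the ligands was 2.63 and 0.61, or 2.95 and 0.07 with genes at 0 in a group set to their bound (3 counts over the group).

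Of 20 other genes of the superfamily, 12 passed the filter and 0 were called by edgeR in any of the 15 comparisons. In S+P C5 against Sensitized their median log2 fold change was -0.87, with 0 at an unadjusted p under 0.05 and 0 calls by DESeq2, and in N+P C5 against Naive it was 0.06, again with 0 and 0. DESeq2 called 1 of them lower in each of S+P C7 against Sensitized (3.77% of all genes) and S+P C4 against N+P C1 (5.23% of all genes). *Tnfrsf26* was the most abundant, at 73.4 to 151 CPM in Naive TFGS and 15.9 to 128 CPM in S+P C5. *Cd40* and *Ltbr*, receptors of antigen-presenting and stromal cells, had 0 counts in all 30 samples.

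None of the signalling genes below the receptors passed the test in edgeR. All 14 genes for TRAF and death domain adaptors and all 15 for NF-kB subunits, inhibitors and kinases passed the filter, and edgeR called 0 of either list in each of the 15 comparisons. In N+P C5 against Naive, 9 of the 14 adaptors and 10 of the 15 NF-kB genes had a log2 fold change above 0, with medians of 0.10 and 0.11, 0 at an unadjusted p under 0.05 and 0 calls by DESeq2. In S+P C5 against Sensitized the medians were 0.06 and -0.12, with 1 adaptor and 0 NF-kB genes at an unadjusted p under 0.05 (13% of all genes) and 0 calls by DESeq2. DESeq2 called 1 NF-kB gene higher in S+P C4 against Sensitized (4.63% of all genes). *Traf1*, which binds the tails of OX40, 4-1BB and TNF receptor 2, was at 289 to 315 CPM in N+P C5 and 157 to 189 CPM in Naive TFGS, and at 190 to 404 CPM in S+P C5 and 207 to 345 CPM in Sensitized TFGS.

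Markers of other cells moved with some groups. The 5 NK cell markers summed to 68.7 to 142 CPM in Sensitized TFGS and 0 to 17.2 CPM in Naive TFGS, with *Klrb1c* most abundant in the highest Sensitized sample. They reached 1003 CPM in S+P C7 replicate 3, led by *Tyrobp* at 482 CPM. The 8 myeloid and dendritic cell markers summed to 30.2 to 387 CPM in Sensitized TFGS against 0 to 32.0 CPM in S+P C5. In the highest of these *Lyz2* took 332 CPM, and *Csf1r*, *Adgre1*, *Cd14*, *Flt3* and *Siglech* were at 0. The only marker gene of another cell type that edgeR called in Sensitized against Naive was *Itgax* (0.153% of all genes called). It encodes CD11c, which activated CD8 T cells also carry. DESeq2 called 2 NK cell markers higher there, and 1 myeloid and dendritic cell marker higher and 1 lower (5.45% of all genes). The 4 cycling genes summed to 163 to 361 CPM in S+P C5, 43.5 to 1410 CPM in S+P C7, 19.7 to 130 CPM in S+P C4, 2.78 to 196 CPM in Sensitized and 42.5 to 61.8 CPM in Naive TFGS. Every S+P C5 sample was thus above every S+P C4 sample, while N+P C5 (21.8 to 108 CPM) and N+P C1 (18.6 to 97.1 CPM) overlapped. The 4 gamma-delta T cell markers summed to at most 15.0 CPM in any sample, and the 5 red cell and platelet markers to at most 6.64 CPM in the median sample of every group. The part of these cells in the receptor levels was not tested.

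The genes most like each receptor across the 30 samples were found by Pearson's r of log2(CPM + 1), as a description. *Tnfrsf4* was most like *Il21* (r = 0.83), which encodes a cytokine of helper T cells, then *Synpo* (0.81) and *Galm* (0.80). *Tnfrsf9* was most like *Batf* (0.77), a transcription factor of activated T cells. *Cd27* was most like *Slamf6* (0.85), a receptor of the SLAM family. *Tnfrsf18* was most like *Tspan31* (0.94), *Ash2l* (0.93) and *Snapc5* (0.93). The samples of S+P mouse 3 held *Tnfrsf18* at 0, 2.13 and 1.03 CPM, far below all others, the next lowest being 37.5 CPM. Such samples weigh heavily in an r, and its value without them was not computed. For *Tnfrsf1b*, *Tnfrsf25*, *Tnfrsf13c* and *Fas* the highest r was 0.75 (*F730043M19Rik*), 0.77 (*Arel1*), 0.76 (*Dipk1b*) and 0.69 (*Gm38346*). Samples of 1 mouse and differences in depth enter all of these.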

How the data were processed

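RNA from 200 sorted cells per library was amplified by Smart-Seq2. Per the labels and the study's methods, the authors trimmed reads with Cutadapt (version 3.4), aligned them to GRCm39 with STAR (version 2.6.1b), kept unique alignments and deposited raw counts per gene from featureCounts (version 2.0.1). The annotation release and strand option are not given in the sources used here. PCR copies could not be removed, so limits from counts cover counting error only.

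Counts of technical libraries were summed per replicate, and levels of samples are CPM with TMM scaling. Technical libraries compared with each other were scaled by their total alone. All 7 groups entered 1 fit in edgeR (version 4.0.16, quasi-likelihood, robust), after filterByExpr with a minimum count of 10, with Benjamini-Hochberg adjustment over 19657 genes. A gene was called where its adjusted p was below 0.1 and its log2 fold change larger than 0.9 in size. The fit held group means only, so subsets read as 1 mouse entered it as separate samples. DESeq2 (version 1.42.0), other scalings, filters, sample sets, single replicates left out and the replicate block were alternatives. The block was the replicate number. In comparisons with Naive or Sensitized samples, or of N+P with S+P samples, it joins different mice that share only a number. Exact tests were two-sided. P-values measure the spread between these samples.

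Subsets with the same replicate number and column name stem were read as 1 mouse, which no label states. Deviations from group means of same-numbered samples correlated at 0.14 on average between S+P C4 and C5 (0.098 to 0.18), 0.16 between C5 and C7 (0.12 to 0.19), 0.19 between C4 and C7 (0.12 to 0.26) and 0.075 between N+P C1 and C5 (0.023 to 0.10). Naive and Sensitized samples share only a number with the others, being of different mice. They correlated at 0.073 between Sensitized and S+P C4 (-0.041 to 0.13), 0.058 between Sensitized and S+P C5 and 0.045 between Naive and N+P C1. The value for the N+P subsets is not set apart from these, so the data do not bear out the pairing of N+P subsets.

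The receptors and lists were chosen with earlier results of these data known. From the lists of ligands, other receptors and signalling genes, the rule named called genes and the 3 most abundant. *Lta*, *Cd70*, *Tnfsf15*, *Tnfsf18*, *Cd40* and *Ltbr* were named after their values were seen. For likeness, up to 3 genes were named per receptor. Positions and upstream sequence were read from GRCm39 with GENCODE M39, which held 54749 of the 55359 identifiers. The level of 1 marker gene is not reported here.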

Additional observations from a re-analysis of the deposited data

Results flagged for a closer look

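In groups of 4 to 6 samples, the gap between the most extreme sample and its neighbour was set against the range of the group, by Dixon's critical value. Of 32 groups of samples, 1 per receptor and group, 5 passed it. Its rate by chance of about 1 in 20 assumes normally distributed values, and the rate for CPM of these libraries was not measured.

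*Tnfrsf9* was at 119 CPM in S+P C4 replicate 2, and the next sample held 11.2 CPM. *Fas* was at 224 CPM in the same sample, and the next held 46.0 CPM. That sample was a single library with 8002 genes detected. *Tnfrsf18* was at 0 CPM in S+P C4 replicate 3, where the nearest sample held 42.9 CPM, and at 2.13 CPM in S+P C5 replicate 3, where the nearest held 82.5 CPM. Both are single libraries of the mouse numbered 3, with 7436 and 12652 genes detected. *Tnfrsf13c* was at 6.81 CPM in Sensitized replicate 1 and at 0 CPM in the other 3 Sensitized samples. The part of depth and gene detection in these values was not tested.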

How the results depend on the processing

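edgeR called 0 of the 8 receptors in each of the 15 comparisons. The count was also 0 with each replicate left out in turn (0 to 0), with RLE size factors, with no filter, with a mean of at least 10 CPM, at an adjusted p under 0.05, with all 56 columns kept and with the replicate block (0 in each comparison fitted). With DESeq2 it was 3 in the mean of the pregnancy changes and in N+P C5 against Naive, 2 in Sensitized against Naive and in the difference of the pregnancy changes, and 1 in N+P C5 against N+P C1, S+P C5 against S+P C4, S+P C4 against N+P C1, N+P C1 against Naive and the mean of the gate differences. Without the samples of under 9000 genes it was 1 (*Tnfrsf4*) in the mean of the pregnancy changes. With only the groups compared it was 1 in that comparison (*Tnfrsf4*) and 1 in N+P C5 against Naive (*Tnfrsf1b*, edgeR adjusted p = 0.0927). The cause of these differences was not tested. Log2 fold changes were compared between settings for 21 of the 120 receptor results. These were the results with an unadjusted p under 0.05 and some picked by hand. Of their recomputed values, 366 kept their direction and side of the threshold, 17 passed it under an alternative and 0 reversed. Results outside these 21 could reverse. With the replicate block, *Tnfrsf4* went from 1.60 to -1.93 (SE 22.6) in S+P C7 against Sensitized, and from 1.82 to -0.73 (SE 2.79) in S+P C7 against S+P C4. For *Tnfrsf13c*, Sensitized against Naive gave no value without Sensitized replicate 1, since both groups were then at 0, and the filter at 10 CPM removed the gene. The 3 against 3 samples of N+P and Naive cannot give an exact p under 0.1, and *Tnfrsf4*, *Tnfrsf25* and *Tnfrsf13c* had no count in 3, 5 and 14 of 30 samples.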
